A study of Mus musculus with 8 samples.

Results

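The CpG-sparse regions are 421 of the 1782 autosomal regions in the authors' deposited table of places where DNA methylation differed between a pair of preadipocyte pools. A region was counted as CpG-sparse when it lay on chromosomes 1 to 19 and held fewer than 2.2 CpG sites per 100 bases of its length. The whole table lists 1820 regions, 38 of them on the sex chromosomes, and the 1361 other autosomal regions serve for comparison. No methylation value entered the choice, but the table lists only regions in which the pools differed by at least 0.303 in mean methylation, as a fraction.

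The cells were preadipocytes, precursors that can become fat cells, taken from inguinal white adipose tissue (iWAT) of male mice given a high fat diet. They were sorted for PDGFRa and against CD45, CD31 and TER119, which removes most immune, endothelial and red blood cells. Whole genome bisulfite sequencing (WGBS) was done on 1 pool of cells with the genotype Pdgfra-Tet3 KO (here KO) and 1 pool with the genotype Tet3 f/f (here WT), both after 14 weeks of the diet. RNA-seq was done on 3 KO and 3 WT libraries after 6 weeks of the diet. Both WGBS pools come from mice on the same diet, so no values from lean mice stand beside them. The labels do not give the number of animals in a pool, their age, or the driver that deletes the floxed alleles beyond the name Pdgfra in the genotype.

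CpG is the short sequence at which most mammalian DNA methylation is found, and it is rare in most of the genome because methylated cytosine mutates readily. Promoters of housekeeping genes often lie in CpG islands, which are dense in CpG and usually free of methylation. Stretches with few CpGs are methylated in most cells, except where regulatory elements such as enhancers are bound by transcription factors, and there the level is often intermediate. TET3 is a dioxygenase that oxidises methylated cytosine, a step towards its removal. Bisulfite sequencing reads methylated and hydroxymethylated cytosine alike.

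The table gives each region a signed difference of mean methylation between the pools, on the scale of a fraction. It does not say which genotype was subtracted from which, so a sign below is never a gain or loss of methylation in KO, and sizes are given as absolute differences. With 1 pool per genotype there are no replicates, and no difference between pools or between sets of regions was tested. Intervals are exact 95% binomial intervals for shares and 95% order-statistic intervals for medians. They treat the listed regions, all from the same pair of pools, as independent draws, and they do not give the error between animals. The read depth behind the regions is unknown.

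The RNA libraries held 1831218 to 2014991 counts in KO and 2002250 to 2374978 counts in WT. Tet3 had 76, 87 and 79 counts in KO libraries 1 to 3, against 93, 127 and 104 counts in WT libraries 1 to 3. Scaled to each library's total, Tet3 stood at 37.7 to 44.4 CPM (counts scaled to a library of 1000000) in KO and 44.1 to 53.5 CPM in WT, ranges that overlapped. In such bulk RNA, fewer cells with the transcript and less transcript per cell cannot be told apart. The 6 stromal markers Pdgfra, Cd34, Ly6a, Pdgfrb, Dcn and Lum summed to 25661 to 26834 CPM in KO and 25143 to 25522 CPM in WT. Dcn alone made 15985 to 17792 CPM of that sum in KO and 17203 to 17616 CPM in WT, and the other members did not move one way. Pdgfra, the gene of the sort marker, stood at 394, 481 and 459 CPM in KO libraries 1 to 3, below the 665, 656 and 622 CPM of WT libraries 1 to 3. Pdgfrb was likewise lower, at 143 to 166 CPM in KO and 273 to 325 CPM in WT, and Lum at 1083 to 1137 CPM in KO and 1453 to 1515 CPM in WT. Cd34 was higher, at 1542 to 1979 CPM in KO and 1249 to 1273 CPM in WT, and so was Ly6a, at 4916 to 5999.5 CPM in KO and 4249 to 4567 CPM in WT. None of these ranges overlapped, and no test was run on them. Of the genes excluded by the sort, Ptprc (CD45) was listed at 0 in all 6 libraries and Pecam1 (CD31) had at most 6 counts. Of the other endothelial markers, Tek stood at 124 to 169 CPM in KO and 125 to 145 CPM in WT, while Cdh5 had at most 2 counts in KO and 6 in WT and Kdr at most 17 counts in KO and 30 in WT. The 4 globin genes Hba-a1, Hba-a2, Hbb-bs and Hbb-bt, markers of red blood cells, summed to 0 to 145 CPM in KO and 1.68 to 7.12 CPM in WT. Skeletal muscle markers (3 genes) summed to 25.8 to 52.4 CPM in KO and 6.32 to 28.0 CPM in WT. Macrophage markers (4 genes) summed to at most 8.74 CPM in KO and 4.75 CPM in WT, with Adgre1 and Lyz2 listed at 0. Schwann cell markers reached at most 6.12 CPM in KO and 3.50 CPM in WT, and markers of mature adipocytes at most 0.546 CPM in KO and 0.949 CPM in WT. These libraries are not the cells of the WGBS pools, and the part of other cell types in the methylation values was not tested.

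The CpG-sparse regions were wide and held few CpGs, as the rule that chose them implies. Their median length was 421 bases (quartiles 353 and 512), against 305 bases (quartiles 248 and 387) in the other autosomal regions. Their median number of CpGs was 7, with quartiles of 6 and 9, against 10, with quartiles of 8 and 12. No region in the table has fewer than 6 CpGs or fewer than 201 bases, and 123 of the 421 sparse regions (29.2%, interval 24.9 to 33.8%) stood at exactly 6 CpGs. In the other regions 149 of 1361 (10.9%) did so. The sparse regions covered 199241 bases and 3536 CpGs, which is 30.3% of the bases but 19.6% of the CpGs of all autosomal regions. Their median density was 1.88 CpGs per 100 bases, against 3.004 in the other regions.

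**Figure D1:**
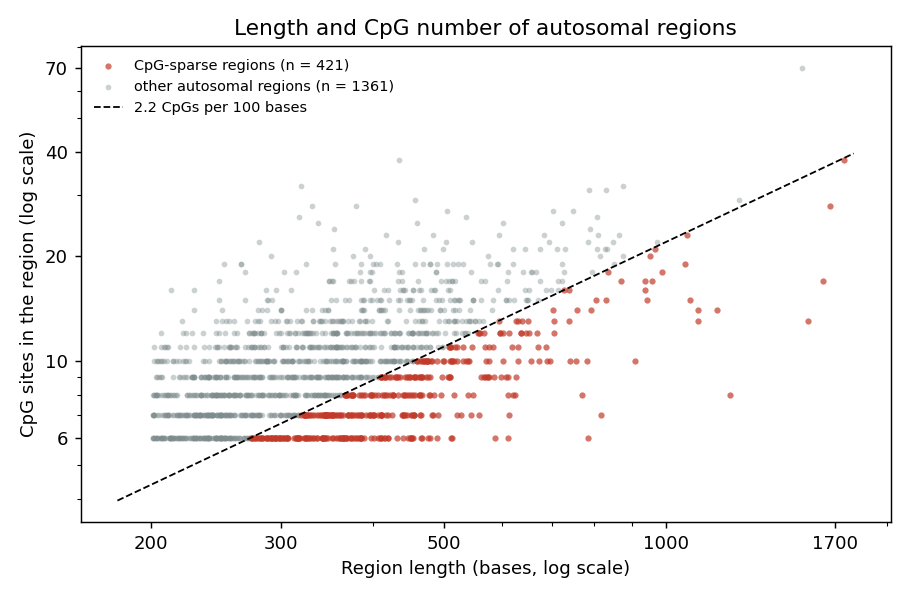
Length in bases (x axis, log scale) and number of CpG sites (y axis, log scale) of each autosomal region, with the 421 CpG-sparse regions in red, the 1361 other regions in grey and the limit of 2.2 CpGs per 100 bases as a dashed line. The sparse regions lie below the line by construction, start at 273 bases and crowd at 6 and 7 CpGs.

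The limit cuts through a continuous range of densities. Just inside it, the authors' deposited table holds chr8:81596318-81597045 and chr1:161832173-161832445, both at 2.198 CpGs per 100 bases, with differences of -0.54 and -0.38, and chr11:86840837-86841246 at 2.195, with a difference of -0.46. Just outside, the same table holds chr2:170171186-170171639 at 2.203, with a difference of -0.39, and chr1:169882341-169882612 and chr16:34374553-34374824, both at 2.206, with differences of -0.44 and -0.39. The name CpG-sparse holds relative to this table and not to promoters in general. Of 31396 autosomal promoter windows of 300 bases in RefSeq (GRCm38.p6), 14919 (47.5%) held fewer than 2.2 CpGs per 100 bases, and the median window held 2.33. Unlike the regions, these windows have a fixed length and no minimum number of CpGs. The rest of the genome was not compared.

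Nearly every CpG-sparse region had a negative difference, so almost all of them differed between the pools in the same direction. This was so in 419 of 421 regions (99.5%, interval 98.3 to 99.9%), where 99.6% of all 1782 autosomal regions had that sign. Among the other regions, 1356 of 1361 did. The direction of the sparse regions was thus that of the table as a whole. In a pool of cells, a change in the makeup of the pool and a change of methylation within cells cannot be told apart.

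Absolute differences between the pools were larger in the sparse regions than in the other regions listed, a comparison made without a test. Their median absolute difference was 0.434 (interval 0.429 to 0.438, quartiles 0.408 and 0.464), against 0.399 in the other regions (interval 0.396 to 0.402, quartiles 0.376 and 0.429). A difference of at least 0.4 was found in 351 of 421 sparse regions (83.4%, interval 79.5 to 86.8%), where 57.1% of all autosomal regions reached it, and in 666 of the 1361 others (48.9%, interval 46.2 to 51.6%). At least 0.45 was reached by 141 sparse regions (33.5%), where 18.2% of all autosomal regions reached it, and by 183 others (13.4%). At least 0.5 was reached by 39 sparse regions (9.26%), where 4.55% of all autosomal regions reached it, and by 42 others (3.09%). The 10th percentile was 0.391 and the 90th 0.499 in sparse regions, against 0.358 and 0.462 in the others, so both ends of the main range lay higher. The smallest difference listed was 0.330 in sparse regions and 0.303 in the others, so no region with a smaller difference enters these medians. Whether the authors' thresholds admit sparse and dense regions at the same difference is stated in none of the sources used, and its part in these values was not tested.

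**Figure D2:**
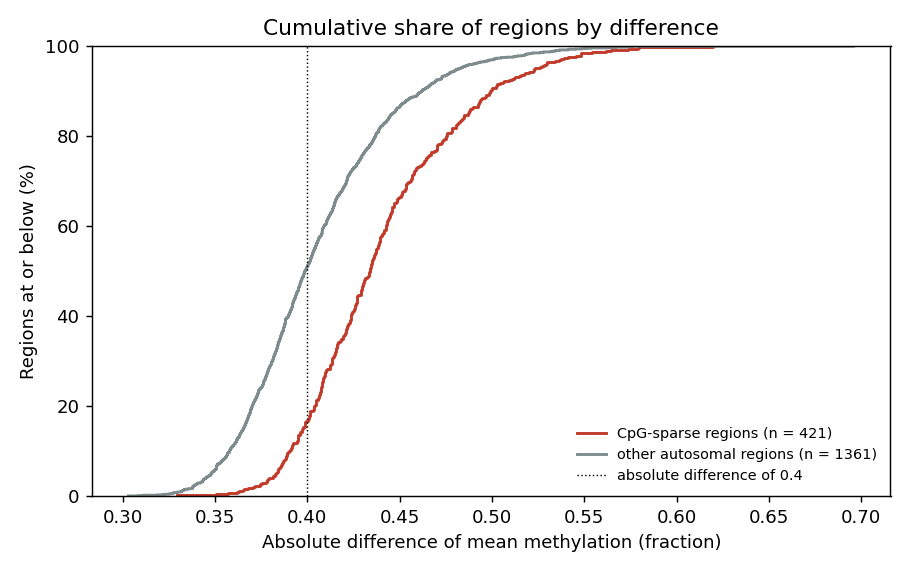
Cumulative share of regions (y axis, %) by absolute difference of mean methylation between the pools (x axis, fraction), for the 421 CpG-sparse regions (red) and the 1361 other autosomal regions (grey), with a dotted line at 0.4. The sparse curve lies to the right over most of its course, with medians of 0.434 in sparse regions and 0.399 in the others.

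The gap in the median was also present between regions with equal numbers of CpGs. Among regions of 6 CpGs the median absolute difference was 0.433 in 123 sparse regions and 0.407 in 149 others. At 8 CpGs it was 0.436 in 54 sparse regions and 0.399 in 165 others, and at 10 CpGs it was 0.441 in 39 sparse regions and 0.398 in 159 others. With 13 or more CpGs it was 0.434 in 33 sparse regions and 0.398 in 308 others. The sparse median was the higher at each number from 6 to 12 CpGs and in the class of 13 or more. The smallest difference listed at 6 CpGs was 0.365 in sparse regions and 0.338 in the others, so the lower end of the list also differed at equal numbers of CpGs.

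**Figure D3:**
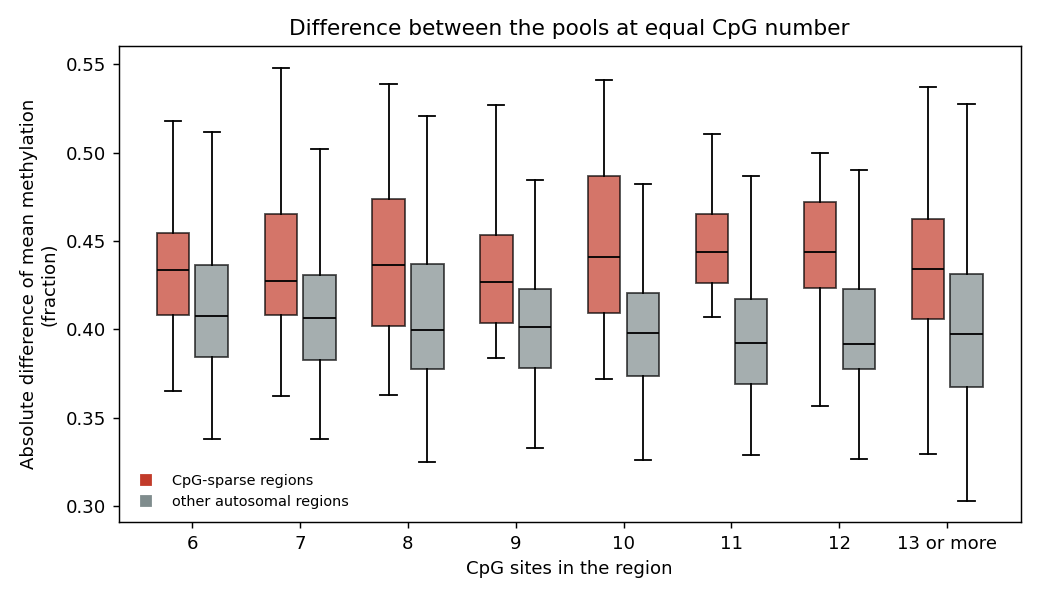
Absolute difference of mean methylation between the pools (y axis, fraction) by the number of CpG sites in the region (x axis), for CpG-sparse regions (red, left of each pair) and other autosomal regions (grey). Boxes span the quartiles, lines in them are medians; whiskers show the range without outlying regions. At 6 CpGs the medians are 0.433 in sparse regions and 0.407 in the others.

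Within classes of length the order was the same, although regions of a class were not of equal length. From 300 to 399 bases, the median absolute difference was 0.424 in 147 sparse regions and 0.3996 in 407 others. From 500 to 699 bases it was 0.443 in 82 sparse regions and 0.415 in 90 others. At 700 bases and above it was 0.4396 in 37 sparse regions and 0.433 in 29 others, the closest pair of the length classes. From 201 to 299 bases, where 30 sparse regions stood beside 656 others, it was 0.435 in sparse regions and 0.395 in the others. The sparse regions of that class start at 273 bases and the others at 201, with medians of 6 and 8 CpGs. Those sets are thus not matched in length or number of CpGs.

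Across the whole range of densities, large differences became less frequent as CpGs became denser. A difference of at least 0.4 was found in 38 of the 39 regions with fewer than 1.4 CpGs per 100 bases (97.4%, interval 86.5 to 99.9%). The share was 77.6% (interval 69.9 to 84.2%) in the 143 sparse regions between 2 and 2.2, 63.3% (interval 58.0 to 68.3%) in the 354 regions between 2.2 and 2.6, and 26.7% (interval 20.6 to 33.6%) in the 191 regions with 4 or more. The share was lower in the class just above 2.2 than in the class just below it, and it went on falling above that. No step at 2.2 was tested. The steps within the sparse regions were not in strict order, since the share was 79.7% between 1.6 and 1.8 and 85.8% between 1.8 and 2. Within the 421 sparse regions, Spearman's rho of density with absolute difference was -0.16, against -0.33 within the 1361 others, both given as descriptions.

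**Figure D4:**
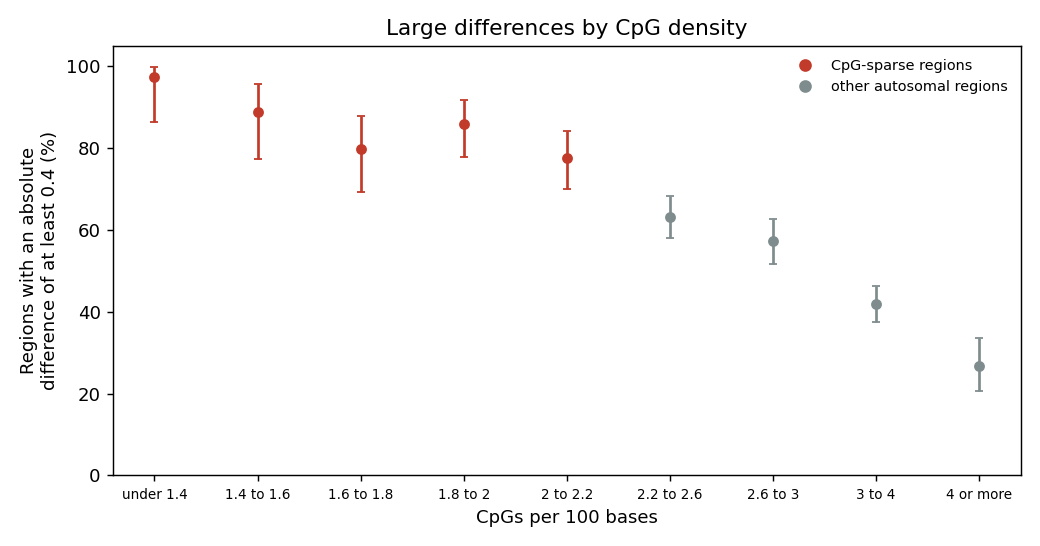
Share of regions with an absolute difference of at least 0.4 (y axis, %) by CpG density (x axis, CpGs per 100 bases), for classes of CpG-sparse regions (red) and other autosomal regions (grey), with exact 95% binomial intervals. The share is 97.4% in the sparsest class and 26.7% in the densest.

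The table also gives each region a summed score. Its absolute value divided by the number of CpGs had a median of 6.13 in sparse regions (quartiles 5.71 and 6.74) and 6.49 in the others (quartiles 6.06 and 7.08). The order was thus the reverse of that of the difference. The lowest score per CpG was nearly equal, at 4.864 in sparse regions and 4.861 in the others. The smallest absolute differences lay further apart, at 0.330 in sparse regions and 0.303 in the others. Whether regions were listed by their score, and its part in the gap of the difference, was not tested. At equal numbers of CpGs the order varied, with medians of 5.77 in sparse regions and 5.95 in others at 6 CpGs, of 6.47 in sparse regions and 6.39 in others at 10 CpGs, and of 6.75 in sparse regions and 7.28 in others with 13 or more.

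The widest sparse region in the authors' deposited table was chr12:55511488-55513232, with 1745 bases, 38 CpGs and a difference of -0.41. It was also the sparse region with the most CpGs and the largest absolute summed score, -257. The same table gives chr4:150085638-150087310, with 1673 bases and 28 CpGs, a difference of -0.44. In size the first lies at the lower quartile of the sparse regions, 0.408, and the second near their median. In the authors' deposited table chr16:25336806-25338439, with 1634 bases and 17 CpGs, differed by -0.40, and chr1:64145848-64147407, with 1560 bases and 13 CpGs, by -0.41. The lowest density of all, 0.65 CpGs per 100 bases, was that of chr19:55830557-55831778 in the authors' deposited table, where 8 CpGs spread over 1222 bases differed by -0.48. All 5 of these regions had a negative difference, as did 99.5% of all sparse regions. None of the 5 reached 0.5 in size, which 9.26% of all sparse regions did. The next widest, chr2:52469082-52470255 with 1174 bases in the deposited table, differed by -0.52. A difference of at least 0.4 was found in 91.9% of the 37 sparse regions of 700 bases and above, against 73.3% of the 30 of 201 to 299 bases. The latter start at 273 bases with a median of 6 CpGs, so they lie close to the limit of 2.2. Between 2 and 2.2 CpGs per 100 bases the share was 77.6%, and length and density were not separated.

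Other sparse regions with many CpGs were narrower than these. The authors' deposited table lists chr2:173184605-173185672, with 1068 bases and 23 CpGs, at a difference of -0.48. It lists chr5:74496916-74497882, with 967 bases and 21 CpGs, at -0.43 and chr4:40156700-40157651, with 952 bases and 20 CpGs, at -0.40. These sizes lie on both sides of the sparse median of 0.434. Over the 421 sparse regions, Spearman's rho of the number of CpGs with the absolute difference was 0.05, and that of length with it was 0.15, both as descriptions over regions from the same pair of libraries.

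The 5 largest negative differences ranged from -0.58 to -0.56. In the authors' deposited table chr10:110009569-110009945, with 6 CpGs over 377 bases, and chr8:47298088-47298375, with 6 CpGs over 288 bases, both differed by -0.58. From that table too, chr11:35028077-35028525, with 9 CpGs over 449 bases, differed by -0.57. There chr1:135411750-135412053, with 6 CpGs over 304 bases, and chr18:75561926-75562223, with 6 CpGs over 298 bases, both differed by -0.56. Of these 5 regions 4 hold 6 CpGs, the fewest the table lists, as do 29.2% of all sparse regions, and 4 are shorter than the sparse median of 421 bases.

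The 39 sparse regions with an absolute difference of at least 0.5 were spread over 18 of the 19 autosomes. Their length ran from 288 to 1174 bases with a median of 455, close to the 421 bases of all sparse regions. Of the 39, 17 held 6 or 7 CpGs (43.6%, against 52.0% of all sparse regions) and 12 held 10 or more (30.8%, against 23.99% of all sparse regions). The 42 other regions with such a difference had a median length of 307.5 bases and a median of 10 CpGs, and their density ran from 2.31 to 8.18 CpGs per 100 bases. Large differences were thus found at both low and high numbers of CpGs.

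A positive difference, the opposite direction, was found in 2 sparse regions. In the authors' deposited table chr5:110119277-110120061, with 6 CpGs over 785 bases, had a difference of 0.62. This was the largest absolute difference of the sparse regions, and its summed score per CpG, 4.95, lay below the lower quartile of the sparse regions, 5.71. In that table chr15:39036931-39037873, with 15 CpGs over 943 bases, had a difference of 0.33 and the highest absolute score per CpG of the sparse regions, 11.1. Its difference was at the same time the smallest in size of the 421. The other autosomal regions held 5 regions of this direction, with differences of 0.36 to 0.70 and densities of 4.21 to 7.57 CpGs per 100 bases. The 2 sparse ones lay at 0.76 and 1.59 CpGs per 100 bases, so none of the 7 autosomal regions with a positive difference lay between 1.59 and 4.21.

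Sparse regions were found on all 19 autosomes. Their number ranged from 13 on chromosome 19 to 39 on chromosome 1, with 35 on chromosome 4 and 33 on chromosome 11. As a share of the regions on a chromosome they made 18.8% (interval 12.2 to 27.1%) on chromosome 6 and 29.5% (interval 18.5 to 42.6%) on chromosome 14, the lowest and highest shares. On each of the 19 chromosomes the interval held 23.6%, the share over all autosomes, and a departure from it was not tested. The median absolute difference of the sparse regions ranged from 0.417 on chromosome 3 to 0.442 on chromosome 10. In the other regions it ranged from 0.391 on chromosome 5 to 0.411 on chromosome 1. The sparse median was the higher on all 19 chromosomes. Chromosome 1 held 9.26% of the sparse and 7.42% of the other regions, and chromosome 6 held 5.23% of the sparse and 6.98% of the others.

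**Figure D5:**
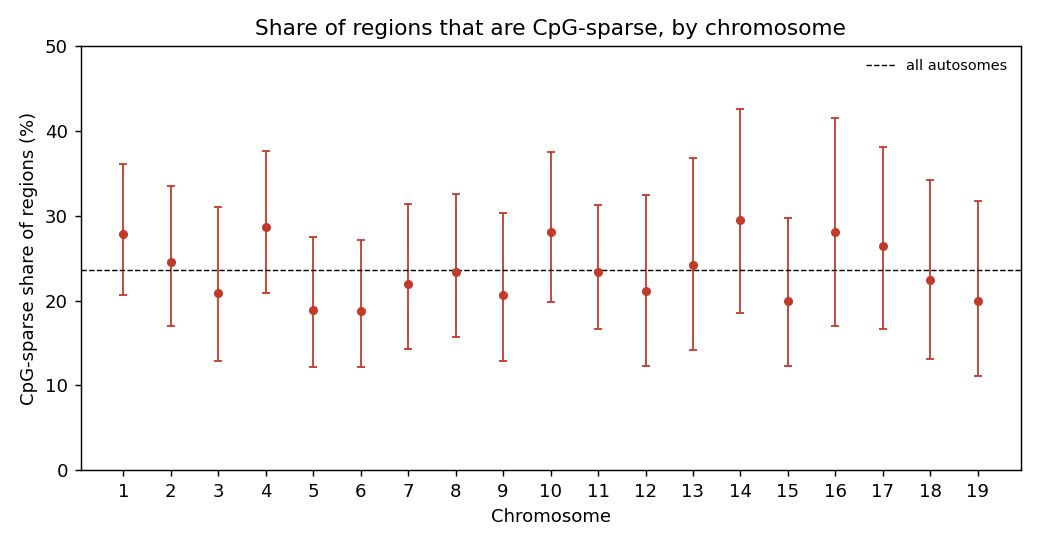
CpG-sparse share of the autosomal regions on each chromosome (y axis, %; x axis, chromosome), with exact 95% binomial intervals and the share over all autosomes, 23.6%, as a dashed line. All 19 intervals hold the dashed line.

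Most sparse regions stood alone. The median gap to the nearest autosomal region of the table was 173454 bases for sparse regions and 139030 bases for the others. Another region lay within 10000 bases of 52 sparse regions (12.4%, interval 9.36 to 15.9%) and of 184 others (13.5%, interval 11.7 to 15.5%), compared without a test. The nearest region was itself sparse for 16 of those 52 sparse regions (30.8%) and for 36 of those 184 others (19.6%), where 23.6% of all autosomal regions are sparse, and each close pair enters these counts from both sides. In all 52 the neighbour differed in the same direction, as nearly every region of the table did.

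The 4 pairs of sparse regions within 2000 bases of each other were looked up after the values were seen. On chromosome 18 the authors' deposited table lists chr18:44571171-44571576, at -0.44, and 191 bases on chr18:44571768-44572063, at -0.45. The differences of these neighbours were nearly equal. On chromosome 8 it lists chr8:81595341-81595804, at -0.40, and 513 bases on chr8:81596318-81597045, at -0.54. There the differences were further apart, so neighbours could share a direction without sharing a size. On chromosome 11 it lists chr11:35028077-35028525, at -0.57, and 1403 bases on chr11:35029929-35030303, at -0.51. The remaining pair in the deposited table is chr11:19897878-19898223, at -0.45, and 1785 bases on chr11:19900009-19900429, at -0.43.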

How the data were processed

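The authors deposited a table of 1820 regions compared between the WGBS pools. Per the file headers, it gives region length, number of CpGs, a signed difference of mean methylation and a summed score. The difference is of a first against a second group, whose genotypes are not named. In every row the length equals the end minus the start plus 1. A further 2 columns, of mean levels per group, were left out because neither can be tied to a pool by its name. The submitters' processing notes name, without roles, DESeq2 1.36.0, HTSeq 0.9.1, HISAT2 2.2.1, Bismark 0.23.0 and Trim Galore 0.6.6, and the builds GRCm39, mm39 and mm10. The region caller, its thresholds and smoothing, the coverage and the build of the coordinates are not given in any source used here. Such choices set which regions are listed and how small a difference can be. Coordinates are printed as the table gives them. Of 10 region ends inside RefSeq promoter windows of GRCm38.p6, 0 fell on a CG, and at most 3 did with any shift of up to 6 bases, so genes, sequences and the planned tests of RNA in overlapping genes were left out. RNA counts per gene were deposited raw, per the file headers, and were used only for Tet3 and markers, divided by library totals and scaled to CPM. A planned marker of red blood cells is not reported here.

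Regions were summarised with Python 3.11.15, pandas 2.3.3 and scipy 1.17.1, and the summaries were tested on simulated data. The regions and lists were chosen with earlier results of these data known. The regions named were the 5 widest, up to 5 with the largest difference in each direction, the 5 with the most CpGs and those nearest the limit. Alternatives were other density limits, density from the intervals between CpGs, stricter scores, minimum differences and CpG numbers, sex chromosomes included and each autosome left out.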

Additional observations from a re-analysis of the deposited data

How the results depend on the processing

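The share of sparse regions with a negative difference stayed between 99.0 and 99.8% under all 27 alternatives, within its interval. With that sign in 99.6% of all autosomal regions, these settings left the share little room to move. The median absolute difference, 0.434, was 0.427 with a limit of 2.5 CpGs per 100 bases, 0.426 with density taken from the intervals between CpGs, 0.444 among regions with a summed score above the autosomal median and 0.440 with at least 10 CpGs. The share at 0.4 or more, 83.4%, was 76.9%, 76.6%, 91.2% and 88.1% in the same 4 settings, all outside its interval of 79.5 to 86.8%. The limit of 2.5 and the interval density take in 662 and 679 regions in place of 421. The sparse value was above that of the other regions in all 27 alternatives for the median and all 25 for the share. In each count, 19 alternatives only left out an autosome, and for the median the minimum of 5 CpGs repeated the reported value. These counts are thus not numbers of independent checks. The limit on the summed score kept 114 of 421 sparse regions and 777 of 1361 others. With fewer CpGs, a sparse region needs a higher score per CpG to pass it, so that setting cannot test the gap. Leaving out each autosome gave medians from 0.433 to 0.434 and shares from 82.6 to 84.3%. The planned minimum of 5 CpGs and minimum difference of 0.3 removed no region. Alternatives for the share at 0.4, the minimum of 10 CpGs, the limit to regions with a negative difference and the left-out autosomes were chosen after seeing the data.

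No paired analysis was possible because each genotype had 1 WGBS pool and the RNA libraries entered no test. The planned share of regions in gene bodies and the RNA test of overlapping genes were not run, since the build could not be settled, nor were the other settings listed for them, such as leaving out RNA libraries. With 1 pool per genotype and no read depth, the error of a single region's level is unknown.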

Other observations

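The sex chromosomes, left out above, held 9 further regions under 2.2 CpGs per 100 bases, all of them on chromosome X, out of 37 regions there (24.3%). Of the 37 regions on chromosome X only 1 had a positive difference, and all 9 sparse ones had a negative difference. Their median absolute difference was 0.484, against 0.424 in the other regions of chromosome X. In the authors' deposited table the largest was -0.60, at chrX:142467562-142468228, with 9 CpGs over 667 bases. Among autosomal sparse regions with a negative difference the largest was -0.58. Chromosome Y held 1 region, which was not sparse and had a positive difference.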
